A study of Mus musculus with 6 samples.

Results

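The 10 genes described here belong to the stromal extracellular matrix, and were compared between groups of cumulus granulosa cells from mice, which surround the oocyte. They are the small leucine-rich proteoglycan genes Dcn, Lum, Ogn and Bgn, the elastic fibre genes Fbn1 and Eln, the fibronectin gene Fn1, and the matricellular genes Sparc, Postn and Tnc. The rows were found by symbol in the authors' deposited table, which holds 10 of the 10 among its 24982 rows and gives an adjusted p for each of them among 14835 tested genes. Cells came from Kun-Ming mice, an outbred stock. The 3 libraries of one group were labelled control and the 3 of the other were labelled Atg5-KD, for cells transfected with short hairpin RNAs against Atg5, whose product is needed to form autophagosomes. What the control cells received, and the age of the mice, are not given in the sources used here, and it is not stated whether the libraries were made from different cultures or animals. The p-values therefore reflect how these libraries varied, which may be technical.

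Small leucine-rich proteoglycans are secreted core proteins built of leucine-rich repeats, most of which carry chondroitin, dermatan or keratan sulfate chains. They bind fibrillar collagen and set the width and spacing of its fibrils. Fibrillin forms microfibrils on which elastin is laid down and which hold latent TGF-beta in the matrix, while fibronectin is assembled into fibres by cells through their integrins. Matricellular proteins are secreted into the matrix and act on cell adhesion and growth factor access more than on tissue strength. In the ovary such genes are best known from the theca, the stroma and the follicle wall, and the cumulus matrix of ovulation is instead built on hyaluronan with versican.

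The table gives 1 row per gene over all libraries, so values of single libraries were not analysed here. Control libraries held an estimated 17300000 counted reads on average and those labelled Atg5-KD 12200000, from the size factors that rows with a single read reveal. The ribosomal RNA locus Rn45s held an estimated 1.17% of normalized counts in control and 17.9% in Atg5-KD. Atg5 itself stood at -0.06 ± 0.14 (SE, log2) in the authors' deposited table (adjusted p = 0.822, Wald test). It therefore cannot serve to check the labels. Its 95% interval from -0.34 to 0.21 leaves a fall of more than 20.7% outside it. A knockdown was thus not seen in the Atg5 RNA of these libraries, and whether Atg5 protein fell was not tested. The direction was taken from the table's name, which puts KO before CTr. Titles of the libraries labelled Atg5-KD also read ko, and those of the control libraries read ctr. If that reading of the direction were turned, every fall here would be a rise. The granulosa genes Inha and Foxl2 had base means of 30063 and 1816 normalized counts in the authors' deposited table, while the aromatase gene Cyp19a1 stood at 2.34 and the theca enzyme gene Cyp17a1 at 0.131.

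Of the 10 genes, 7 were lower in the libraries labelled Atg5-KD and 0 were higher in the authors' deposited table, by a Wald p under 0.05 after Benjamini-Hochberg adjustment. Over all tested genes 10.5% were lower and 10.4% higher by the same rule. At an unadjusted p under 0.05 the counts among the 10 genes were also 7 and 0. Bgn, Tnc, Ogn and Fn1 lost between 45.4% and 49.4% of their estimated control level, Lum 36.2%, Fbn1 27.1% and Sparc 14.4%. Dcn, Eln and Postn did not pass the test. The median log2 fold change of the 10 genes was -0.55, beside 0.00 for all tested genes, whose quartiles were -0.22 and 0.25. These genes were picked with results of the same data known, so their count is a description. RNA of several cell types is pooled in a bulk library, and fewer cells of a type and less RNA per cell cannot be told apart.

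**Figure D1:**
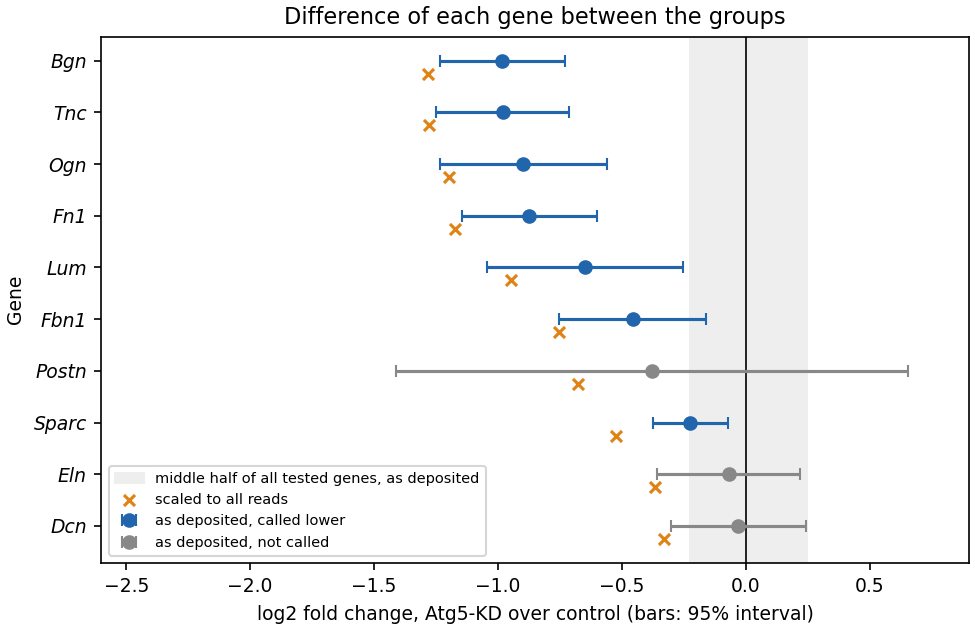
The log2 fold change of each gene (x axis, Atg5-KD over control) is drawn with its 95% interval as deposited, blue where called lower and grey where not, beside crosses for the value scaled to all reads. The intervals of Bgn, Tnc, Ogn, Fn1, Lum, Fbn1 and Sparc end below 0, and those of Postn, Eln and Dcn reach past it; the grey band spans the quartiles of all tested genes.

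Levels differed widely among the genes. To set genes side by side, the estimated group means were divided by the length of each gene's transcript, the longest one that GENCODE links to RefSeq. Sparc stood far above the rest with 14424 normalized counts per kb in control and 12345 in Atg5-KD, higher than 99.9% of tested genes by its mean per kb. Fn1 followed at 1933 and 1056 normalized counts per kb. Tnc at 722 and 366 and Bgn at 686 and 347 normalized counts per kb were close to each other in both groups. A middle tier was formed by Ogn, Dcn, Fbn1 and Eln, with control levels of 277, 194, 178 and 129 normalized counts per kb. In Atg5-KD the same 4 genes stood at 149, 189.8, 130.0 and 123 normalized counts per kb, so Dcn came to lie above Ogn. Lum was lower still, at 76.7 and 48.9 normalized counts per kb. Postn was barely detected at 5.18 and 3.99 normalized counts per kb, above only 9.64% of tested genes. Sparc made up 77.4% of the summed level per kb of the 10 genes in control and 83.6% in Atg5-KD. The spread of these levels over libraries is not in the table, so whether neighbours in this order differ beyond it was not tested.

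**Figure D2:**
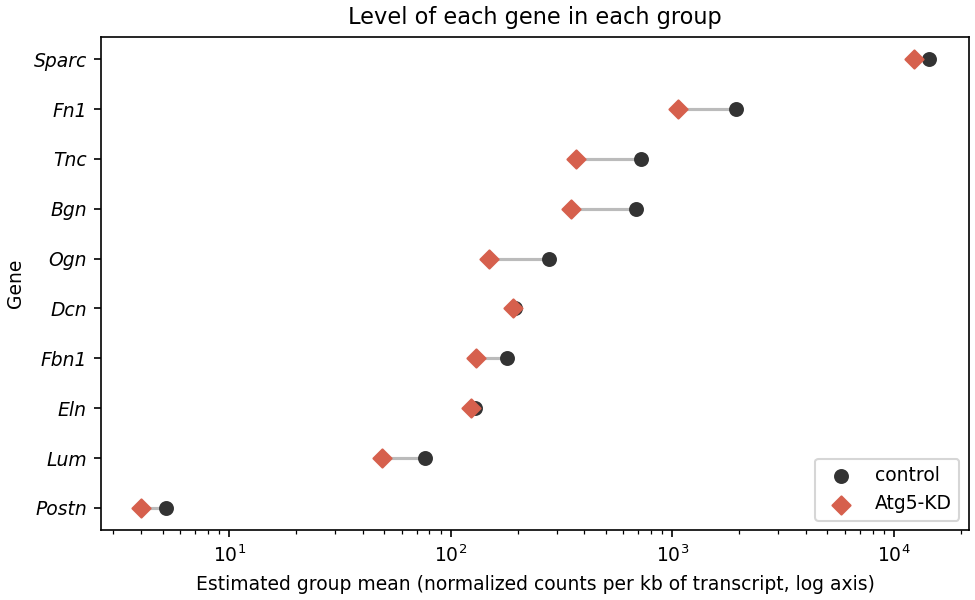
Estimated group means (x axis, normalized counts per kb of transcript, log scale) of each gene are shown for control (circles) and Atg5-KD (diamonds), with genes ordered by their control level; errors per group are not in the table. Sparc lies highest with 14424 and 12345, Postn lowest with 5.18 and 3.99, and the pairs of Dcn and Eln nearly coincide.

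Among the small leucine-rich proteoglycans, Bgn encodes biglycan, a collagen-binding proteoglycan that also binds TGF-beta. Its estimated mean was 1659.9 normalized counts in control and 841 in Atg5-KD. The authors' deposited table gave a log2 fold change of -0.98 with a standard error of 0.13 (adjusted p = 2.69e-12, Wald test), a 1.97-fold fall with a 95% interval from 1.66-fold to 2.35-fold. Only 3.80% of tested genes had a lower log2 fold change than Bgn. Ogn encodes osteoglycin, also named mimecan, a regulator of collagen fibril growth. It went from an estimated 710.3 to 381 normalized counts, with a log2 fold change of -0.90 ± 0.17 (SE) per the authors' deposited table (adjusted p = 4.6e-06, Wald test). Lum encodes lumican, a keratan sulfate proteoglycan known for ordering collagen in the cornea. Its estimated means were 188 and 119.8 normalized counts, with a log2 fold change of -0.65 ± 0.20 (SE) per the authors' deposited table (adjusted p = 0.00968, Wald test).

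Unlike these 3 genes, Dcn did not pass the test on the deposited scale. It encodes decorin, the closest relative of biglycan, which decorates collagen fibrils and binds TGF-beta. Estimated means were 340.5 normalized counts in control and 334 in Atg5-KD. The authors' deposited table gave -0.03 ± 0.14 (SE) for Dcn (adjusted p = 0.919, Wald test), and the 95% interval from -0.30 to 0.24 leaves a fall of more than 18.8% outside it. That interval does not overlap those of Bgn (-1.24 to -0.73) or Ogn (-1.24 to -0.56), but overlaps that of Lum (-1.05 to -0.25). The ratio of Dcn to Bgn per kb was 0.282 in control and 0.546 in Atg5-KD. Differences between genes were not tested, since the genes were measured in the same libraries and their errors are not independent.

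Small leucine-rich proteoglycan genes lie in clusters, and the described genes share theirs with relatives. On chromosome 10 of GRCm38, Dcn (97479609 to 97518143) is followed on the same strand by Lum (97565128 to 97572703) and then by Kera and Epyc, for keratocan and epiphycan. Kera and Epyc had a base mean of 0 in the authors' deposited table. So within 1 cluster of 203 kb, Dcn did not pass the test, Lum was lower and the remaining genes gave no counts. On chromosome 13, Ogn (49608046 to 49624501) is preceded by Omd, Aspn and Ecm2 over 119.7 kb. Omd, for osteomodulin, was at -1.34 ± 0.18 (SE, log2) in the authors' deposited table (adjusted p = 6.73e-12, Wald test). Aspn at -0.33 ± 0.62 (SE) and Ecm2 at 0.05 ± 0.48 (SE) did not pass, per the authors' deposited table, at base means of only 11.3 and 17.1. All 4 lie inside the span of Cenpp, a centromere gene on the other strand that shares 0 exon bases with the transcript of Ogn and stood at -0.28 in the authors' deposited table (adjusted p = 0.445, Wald test). Bgn lies on the X chromosome (73483602 to 73495933), and no other gene of this family was found within 120 kb of it.

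**Figure D3:**
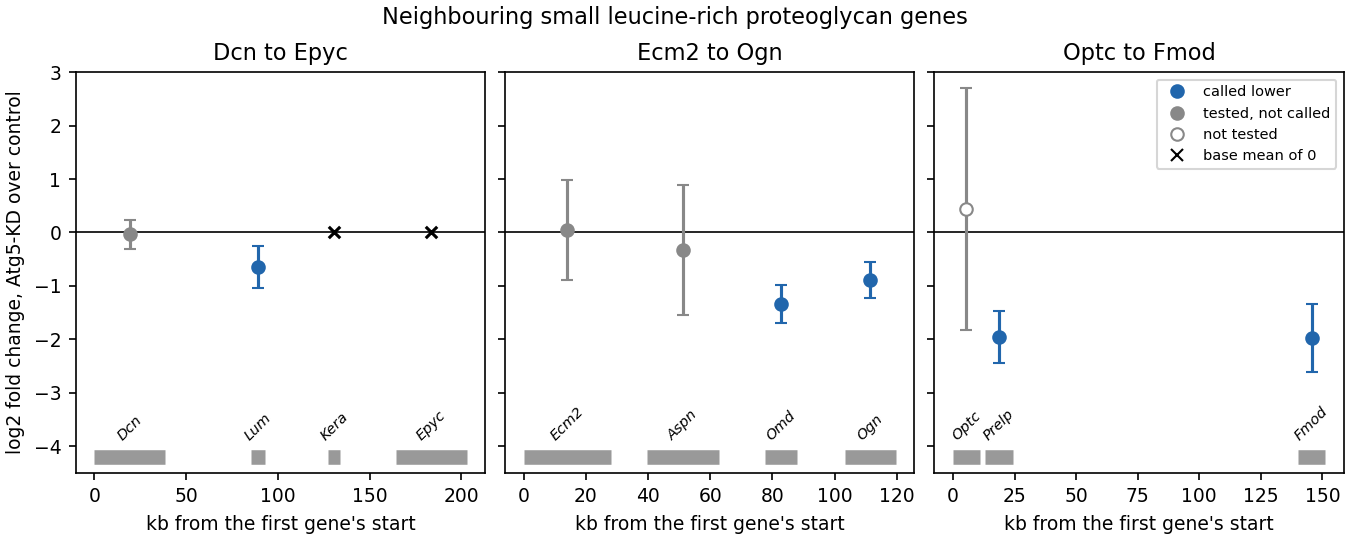
For 3 gene clusters, the log2 fold change (y axis, Atg5-KD over control, bars: 95% interval) is drawn against distance from the first gene's start in kb, with gene spans as grey bars; crosses mark genes with a base mean of 0. Lum, Omd, Ogn, Prelp and Fmod are called lower, and Dcn at -0.03 sits on the zero line next to Lum at -0.65.

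Of 9 tested further members of this family, 3 were lower and 0 higher per the authors' deposited table, with 1 higher at an unadjusted p under 0.05. Prelp, which links collagen to basement membrane, fell 3.89-fold from an estimated 171 to 43.9 normalized counts (-1.96 ± 0.25 SE, log2, in the authors' deposited table, adjusted p = 2.42e-13 by the Wald test). Fmod, for fibromodulin, fell 3.94-fold from an estimated 82.5 to 20.9 normalized counts (-1.98 ± 0.32 SE, log2, in the authors' deposited table, adjusted p = 3.33e-08 by the Wald test). The third was Omd. Both Prelp and Fmod lie in a cluster on chromosome 1 with Optc, which had too few counts to be tested. The median log2 fold change of the 9 genes was -0.33.

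Fn1 encodes fibronectin, the adhesive glycoprotein that integrins assemble into fibres. The estimated mean was 16074 normalized counts in control and 8778 in Atg5-KD. From the authors' deposited table the log2 fold change was -0.87 ± 0.14 (SE) with a Wald adjusted p of 1.21e-08, a 1.83-fold fall with a 95% interval from 1.52-fold to 2.21-fold. Fn1 lies on chromosome 1 from 71585520 to 71653200, where 3.21% of its transcript overlaps exons of the antisense gene Apol7d, whose base mean was 2.95 in the authors' deposited table. Of 12 genes for receptors of fibronectin and elastin, 3 were lower and 1 higher according to the authors' deposited table, with a median log2 fold change of -0.17. The integrin genes Itgb5 and Itga8 were at -0.89 ± 0.10 (SE) and -1.78 ± 0.38 (SE), and the syndecan gene Sdc2 at -0.52 ± 0.11 (SE), in the authors' deposited table. The higher gene was Sdc4 at 0.35, chosen once its value was known, in the authors' deposited table. Itga5 and Itgb1 encode the main fibronectin receptor and did not pass the test, at 0.19 ± 0.10 (SE) and -0.03 ± 0.08 (SE) per the authors' deposited table; both were named for that role after their values were seen.

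Tnc encodes tenascin-C, a matricellular protein of remodelling tissue that modulates adhesion to fibronectin. It fell from an estimated 5127 to 2598 normalized counts. The authors' deposited table gave -0.98 ± 0.14 (SE) for Tnc (adjusted p = 4.86e-11, Wald test), a 1.97-fold fall with a 95% interval from 1.64-fold to 2.38-fold, the same size as for Bgn. Sparc encodes osteonectin, a calcium- and collagen-binding protein, and is by far the most abundant of the 10 genes. Estimated means were 33175 and 28393 normalized counts, a fall of 14.4% (95% interval 4.96% to 22.9%). The log2 fold change of -0.22 ± 0.08 (SE) passed the test in the authors' deposited table (adjusted p = 0.0214, Wald test). The call was lost when the trend of all genes with GC content and length was removed (-0.15, adjusted p = 0.230, Benjamini-Hochberg on recomputed Wald statistics). In size Sparc sits at the lower quartile of all tested genes, which was -0.22 as well. Postn encodes periostin, which binds tenascin-C and supports collagen cross-linking. With estimated means of 16.6 and 12.8 normalized counts, it was at -0.38 ± 0.53 (SE) per the authors' deposited table (adjusted p = 0.687, Wald test). Its 95% interval ran from -1.41 to 0.66, which spans a fall of 62.4% and a rise of 57.6%, so a change within that range was not detectable at this depth.

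Other matricellular genes were mixed. Of 16 tested, 6 were lower and 1 higher per the authors' deposited table, with a median log2 fold change of -0.28. Thbs1, for thrombospondin-1, an activator of latent TGF-beta, fell 1.88-fold from an estimated 155724 normalized counts to 82681 (-0.91 ± 0.14 SE in the authors' deposited table, adjusted p = 1.14e-09 by the Wald test). Smoc2, a relative of Sparc, was at -1.56 ± 0.30 (SE) and Ctgf, for connective tissue growth factor, at -0.58 ± 0.11 (SE) per the authors' deposited table. The higher gene was Fstl1, another relative of Sparc, at 0.27, chosen once its value was known, in the authors' deposited table.

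In the elastic fibre the 2 described genes differed in outcome. Fbn1 encodes fibrillin-1, the backbone of microfibrils. It went from an estimated 1756 to 1280.3 normalized counts, with a log2 fold change of -0.46 ± 0.15 (SE) per the authors' deposited table (adjusted p = 0.0164, Wald test). Eln encodes elastin, the rubber-like core. Its estimated means were 497 and 474 normalized counts, with -0.07 ± 0.15 (SE) per the authors' deposited table (adjusted p = 0.808, Wald test). The 95% interval of Eln from -0.36 to 0.22 overlaps that of Fbn1 from -0.75 to -0.16. After the GC and length trend was taken out, the sign of Eln turned to 0.15 and still did not pass the test (adjusted p = 0.614, Benjamini-Hochberg on recomputed Wald statistics). The transcript of Eln is the richest in G and C of the 10, at 58.8%. The ratio of Fbn1 to Eln per kb was 1.38 in control and 1.06 in Atg5-KD. Fbn1 lies on chromosome 2 from 125300594 to 125507993 and Eln on chromosome 5 from 134702593 to 134747323. Exons of an annotated gene on the other strand cover 4.03% and 3.94% of their transcripts, and the sources used here do not say whether the counting used strand.

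Most partners of the elastic fibre fell. Of 19 tested, 15 were lower and 1 higher according to the authors' deposited table, with a median log2 fold change of -0.83. Lox, which cross-links elastin and collagen, fell 2.18-fold (-1.12 ± 0.12 SE in the authors' deposited table, adjusted p = 6.59e-18 by the Wald test). Fbln1, an elastin- and fibronectin-binding fibulin, fell 1.78-fold and Mfap2, a microfibril protein that binds fibrillin, 2.01-fold, with -0.83 ± 0.09 (SE) and -1.01 ± 0.12 (SE) per the authors' deposited table. The higher gene was Efemp1, for fibulin-3, at 0.60, chosen once its value was known, in the authors' deposited table.

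Fbn1 and Eln also share a sequence feature that the other 8 genes lacked. The miR-29 microRNAs are known regulators of matrix genes in fibrosis, and share the seed AGCACCA (bases 2 to 8, in capitals in the RefSeq mature sequences below, GRCm38.p6).
miR-29a-3p: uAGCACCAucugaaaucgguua
miR-29b-3p: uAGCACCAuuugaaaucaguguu
miR-29c-3p: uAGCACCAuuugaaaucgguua
The 7 bases complementary to that seed, TGGTGCT, occurred 2 times in the 3′ UTR of Fbn1 and 3 times in that of Eln, and 0 times in those of the other 8 genes. The first site of each is shown with its flanks from the GENCODE transcript, 5′ to 3′, with the seed match in capitals, for Fbn1 at chr2:125301169-125301193 and for Eln at chr5:134703732-134703756, both on the minus strand.
Fbn1 site: tctgttgtctgttTGGTGCTagtaa
Eln site: acctcatcaacgtTGGTGCTactgc
Among 13725 tested genes with a 3′ UTR, 14.7% had at least 1 such match. Of the genes with a match 11.8% were called lower in the authors' deposited table, against 11.1% of those without, with median log2 fold changes of 0.04 and -0.01. Genes with a match had longer 3′ UTRs, with a median of 2390 bases against 920.0 bases. The precursor genes Mir29a, Mir29b-2 and Mir29c had a base mean of 0 in the authors' deposited table, which came from poly(A) RNA, and mature microRNAs were not measured. A match is a string of letters and not a shown site of action.

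The 250 bases before the start were read for the genes with an entry in the RefSeq promoter table, which were 6 of the 10. Those of Bgn, Tnc and Ogn are printed because these 3 had the lowest log2 fold changes of the 10 genes. Capitals mark matches on either strand. The TATA box was searched as TATAAA. For the GC box of Sp1 factors the letters were GGGCGG. AP-1, the Fos and Jun dimer, was searched as TGANTCA. For the TEAD factors of the Hippo pathway the letters were GGAATG. An E-box was searched as CAGCTG. The CArG box of serum response factor was searched as CC, then 6 bases that are each A or T, then GG. The printed promoters lie at chrX:73483351-73483600 on the plus strand, chr4:64047016-64047265 on the minus strand and chr13:49607765-49608014 on the plus strand of GRCm38.p6.
Bgn promoter: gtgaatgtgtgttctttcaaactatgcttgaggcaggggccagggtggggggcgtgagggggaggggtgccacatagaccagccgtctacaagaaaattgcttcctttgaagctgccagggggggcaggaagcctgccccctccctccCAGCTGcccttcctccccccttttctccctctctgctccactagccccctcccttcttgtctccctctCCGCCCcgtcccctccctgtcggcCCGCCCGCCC
Tnc promoter: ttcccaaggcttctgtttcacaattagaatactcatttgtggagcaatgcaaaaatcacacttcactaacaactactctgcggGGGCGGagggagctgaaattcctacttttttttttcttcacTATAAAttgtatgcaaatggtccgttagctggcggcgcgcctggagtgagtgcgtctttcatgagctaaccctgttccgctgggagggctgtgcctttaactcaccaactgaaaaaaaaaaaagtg
Ogn promoter: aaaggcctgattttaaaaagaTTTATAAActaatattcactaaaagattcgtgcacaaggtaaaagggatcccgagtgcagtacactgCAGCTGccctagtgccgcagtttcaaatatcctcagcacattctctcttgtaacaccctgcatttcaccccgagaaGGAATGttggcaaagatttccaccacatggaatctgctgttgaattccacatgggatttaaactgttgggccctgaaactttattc
No searched motif was common to all 3 promoters. Bgn held 3 GC boxes, of which the pair nearest the start overlap, and 1 E-box. Tnc has 2 entries, of which the first is printed, and it held 1 GC box and the TATA letters at -126 from the start. The second entry held the TATA letters at -205. Variants of TATAAA were not searched, so a TATA box of other letters nearer a start would be missed. Ogn held 1 TEAD match, 1 E-box and the TATA letters read on both strands with overlap, at -229 and -227. Whether these letters act as a TATA box at such distances was not tested. Of all 32851 promoters of the same length, 32.7% held a GC box, 12.4% a TATA box and 12.6% the TEAD letters, and 4271 held the E-box. AP-1 letters stood in 6.75% and the CArG box in 1.47% of all promoters, and in 0 of the 8 promoters of the 6 genes. The absence of these letters from a window of 250 bases says nothing about the factors.

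Most collagens that the described genes bind were lower. Of 10 tested, 8 were lower and 0 higher per the authors' deposited table, also with 0 higher at an unadjusted p under 0.05, and the median log2 fold change was -0.62. Col1a1 and Col1a2, the chains of type I collagen, were at -1.10 ± 0.14 (SE) and -0.89 ± 0.13 (SE), and Col5a2, of the type V collagen that starts fibrils, at -0.57 ± 0.09 (SE) per the authors' deposited table. Col5a1, the partner chain of Col5a2, at 0.19 ± 0.11 (SE) and Col14a1 at 0.03 ± 0.69 (SE) did not pass, per the authors' deposited table, and were named after their values were seen. Genes that build chondroitin and dermatan sulfate chains, such as those on Dcn and Bgn, moved less uniformly. Of 20 tested, 6 were lower and 1 higher according to the authors' deposited table, with a median of -0.22; without the GC and length trend 3 of the 20 were lower. Chpf, a chain polymerizing factor, fell 1.61-fold and the sulfotransferase gene Chst12 fell 1.74-fold, with -0.69 ± 0.12 (SE) and -0.80 ± 0.17 (SE) per the authors' deposited table. Chst11, which sulfates the same chains, rose 1.78-fold from an estimated 6091 to 10857 normalized counts (0.83 ± 0.11 SE in the authors' deposited table, adjusted p = 3.15e-12 by the Wald test).

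Calls among large proteoglycans went both ways. Of 9 genes of large and basement membrane proteoglycans and their partners, 1 was lower and 2 higher per the authors' deposited table, with a median of -0.30. The share lower was 11.1%, near the 10.5% of all tested genes, of which 10.4% were higher. The lower count therefore does not set this list apart. Vcan, the versican of the expanding cumulus matrix, rose 2.65-fold from an estimated 272 to 721 normalized counts (1.41 ± 0.18 SE in the authors' deposited table, adjusted p = 1.43e-13 by the Wald test). Agrn, the heparan sulfate proteoglycan agrin, rose 2.01-fold (1.01 ± 0.14 SE in the authors' deposited table, adjusted p = 7.4e-11 by the Wald test). Col15a1, a chondroitin sulfate proteoglycan collagen of basement membranes, fell 2.30-fold (-1.20 ± 0.13 SE in the authors' deposited table, adjusted p = 4.42e-17 by the Wald test). Over the 7 related matrix lists together, 42 of 95 tested genes were lower and 6 higher according to the authors' deposited table, with a median log2 fold change of -0.33.

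Of 12 known target genes of TGF-beta, 8 were lower and 2 higher per the authors' deposited table, with a median of -0.58. Without the GC and length trend 5 were lower and 0 higher among the 11 for which a length was found. Lengths were looked up by deposited symbol, and none was found under Ctgf, now named Ccn2. Tagln, an actin-binding protein of smooth muscle, and Ltbp2, which binds fibrillin, were at -1.26 ± 0.13 (SE) and -1.32 ± 0.18 (SE) per the authors' deposited table. Col1a1, given with the collagens, was the remaining gene of the 3 with the smallest adjusted p. Tgfbr1, a receptor of TGF-beta, at 0.46 and Skil, a repressor of the pathway, at 0.43 were the higher genes in the authors' deposited table, both named after their values were seen.

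**Figure D4:**
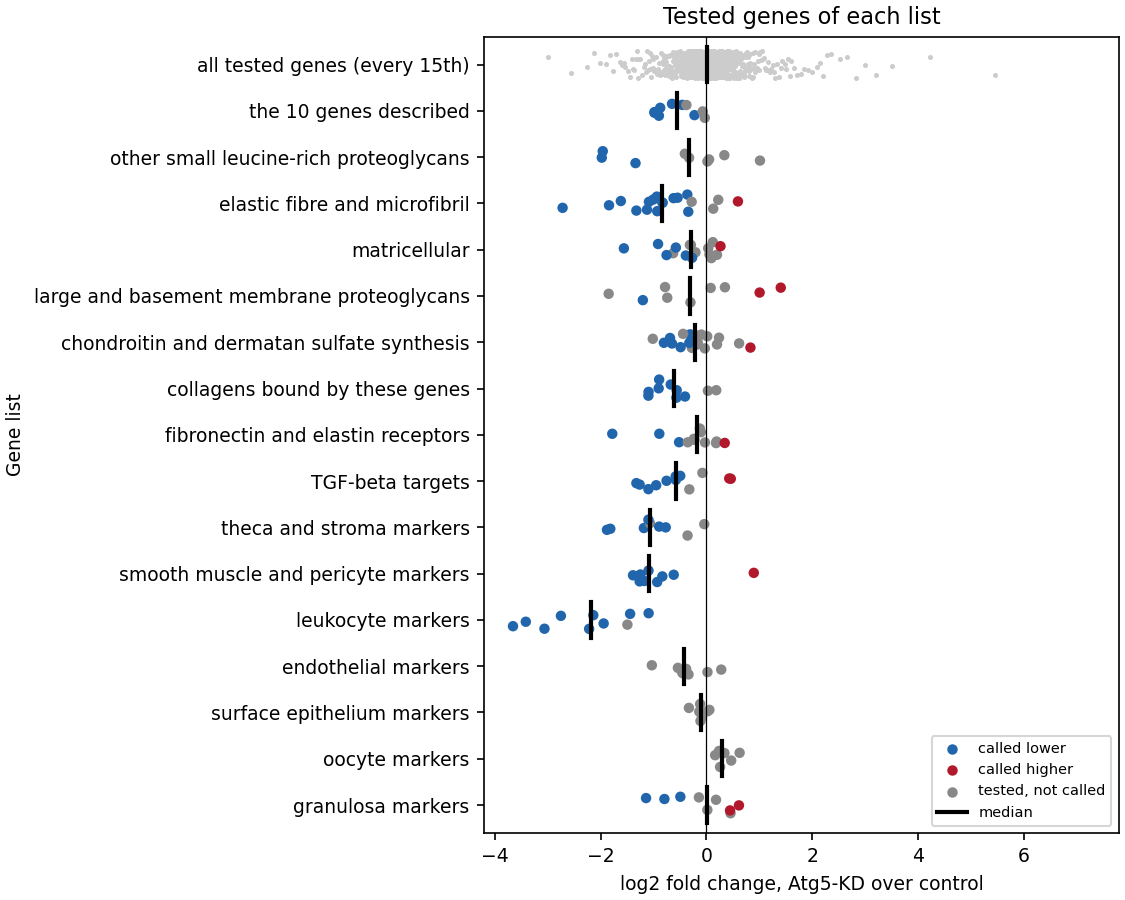
Each point is 1 tested gene of the list named on the y axis at its log2 fold change (x axis, Atg5-KD over control), blue where called lower, red where called higher and grey otherwise, with black bars for medians and every 15th of all tested genes on top. The median of the 10 genes at -0.55 lies below that of all tested genes and above those of theca and stroma (-1.07), smooth muscle (-1.09) and leukocyte markers (-2.18).

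Markers of theca and stroma, smooth muscle and leukocytes moved the same way as the described genes. Of 9 tested theca and stroma markers 6 were lower and 0 higher according to the authors' deposited table (8 lower and 0 higher at an unadjusted p under 0.05), and their summed estimated level was 7620 normalized counts in control and 4234 in Atg5-KD. Most of that sum was Col1a1, at an estimated 2852 and 1334 normalized counts, and Col1a2, at 2669 and 1438. Both are also given with the collagens, so the sum is not separate from the matrix genes. Thy1, at -1.88 ± 0.24 (SE), and Col1a1 were among the lower genes of this list in the authors' deposited table. Smooth muscle and pericyte markers were lower in 8 and higher in 1 of 9 cases in the authors' deposited table, and their sum went from 12638 to 5851 normalized counts. Actg2 at -1.39 ± 0.14 (SE), Acta2 at -1.17 ± 0.12 (SE) and Tagln led it in the authors' deposited table, and Notch3 at 0.90, chosen once its value was known, was the higher one. Leukocyte markers were lower in 9 of 10 cases and higher in 0 in the authors' deposited table, and their sum went from 2171 to 508 normalized counts. Laptm5 at -2.75 ± 0.34 (SE), C1qc at -3.66 ± 0.51 (SE) and C1qa at -3.06 ± 0.45 (SE) led it in the authors' deposited table. Ptprc, the gene of the common leukocyte antigen, was the one without a call, at -1.49 and a base mean of 12.6 in the authors' deposited table.

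No gene of the endothelial, surface epithelium and oocyte lists passed the test. Endothelial markers had 0 of 8 calls in the authors' deposited table (1 lower at an unadjusted p under 0.05), with sums of 299 and 260.1 normalized counts. Their median log2 fold change was -0.42, with a range from -1.03 to 0.28. Egfl7, the most abundant, was the highest of them at 0.28 ± 0.27 (SE). With sums this low, a fall of the size seen in other lists could be missed. Surface epithelium markers had 0 of 8 calls in the authors' deposited table (1 lower at an unadjusted p under 0.05), with sums of 3932 and 3635 normalized counts and Krt8 at 0.02 ± 0.13 (SE). Oocyte markers had 0 of 6 calls in the authors' deposited table (0 at an unadjusted p under 0.05), with sums of 81.9 and 102 normalized counts and Gdf9 at 0.26 ± 0.46 (SE). Granulosa markers were lower in 3 and higher in 2 of 9 cases in the authors' deposited table, with sums of 60292 and 63604 normalized counts. Inhbb at -1.14 ± 0.15 (SE) and Hsd17b1 at -0.79 ± 0.11 (SE) were lower and Nr5a2 at 0.62 ± 0.12 (SE) higher in the authors' deposited table. The part of these markers in the falls of the matrix genes was not tested.

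Scaling to the estimated total of all reads, Rn45s included, moved every log2 fold change by -0.30 and that of the median tested gene to -0.29. Rn45s alone made up 1.17% of that total in control and 17.9% in Atg5-KD, so most of the shift comes from this 1 row. A scale to all reads without Rn45s was not run. On that scale 9 of the 10 genes were lower and 0 higher, beside 38.7% of all tested genes lower and 3.6% higher, after Benjamini-Hochberg adjustment of the shifted statistics. Dcn was then at -0.33 (adjusted p = 0.0436 with Benjamini-Hochberg adjustment of the shifted statistics) and Eln at -0.37 (adjusted p = 0.0314, likewise), which places both near that median, and Postn did not pass the test. Among the other lists, the lower genes became 13 of 20 for chondroitin and dermatan sulfate synthesis, 7 of 12 for the receptors and 5 of 8 for surface epithelium. The higher genes of the matricellular, receptor and TGF-beta target lists (Fstl1, Sdc4, Tgfbr1 and Skil) lost their calls on that scale. The relative order of the 10 genes is the same on both scales because the shift is constant.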

How the data were processed

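RNA of cumulus granulosa cells was sequenced in 6 libraries, numbered 2, 3 and 4 in each group. Tools listed in the submitters' processing notes are DESeq2 1.30.1, StringTie 2.1.4, featureCounts 1.6.2 and STAR, with the build mm10, in no stated order. Per the file headers, the authors' base mean, a signal value, has the column name under which DESeq2 writes the mean of read counts divided by size factors. The log2 fold change and its standard error were deposited by the authors, as were the Wald statistic (a score) and the p-value columns. Recomputing the statistic and the Benjamini-Hochberg adjustment over 14835 genes differed in 0 rows at a tolerance of 1e-06. Read counts per library, and so the planned edgeR test, were not analysed here, and 0 columns hold values of a library.

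Group means were computed from the base mean and fold change with 3 libraries a group, and 95% intervals from the standard errors, in Python 3.11.15 with pandas 2.3.3, scipy 1.17.1 and statsmodels 0.14.6; they cover the spread that the authors' model estimated. A gene was called at an adjusted p under 0.05. Lengths and GC content came from GENCODE M21 transcripts (GRCm38), matched by deposited symbol and found for 99.0% of tested genes. Trend removal and adjustment were run on simulated tables with known fold changes, with a trend of a form that the fit contains. The simulated shift was taken out by its known amount, so that case only repeats the one without bias. Group means, intervals, depths and sequence searches were not simulated. The 10 genes and all gene lists were chosen with earlier results of these data known. Beyond the 10 genes and Atg5, the text names in each list the 3 called genes with the smallest adjusted p, or the most abundant one where none was called; 1 gene that this rule names is not reported here, and others are said to be named afterwards or serve a neighbouring locus or the check of the cell type.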

Additional observations from a re-analysis of the deposited data

How the results depend on the processing

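Bgn, Tnc, Ogn, Fn1 and Lum kept their direction and call under every alternative run other than a fold minimum of 2, which left 0 of the 10 genes called lower (-0.98, -0.98, -0.90, -0.87, -0.65, and -0.46 for Fbn1 and -0.22 for Sparc), 15 and 2 of the related matrix genes lower and higher, and 281 and 332 of all genes. At an adjusted p under 0.01, Fbn1 (-0.46) and Sparc (-0.22) lost their calls, and 1030 genes were lower and 1026 higher in all. After removal of the GC and length trend, Sparc lost its call (-0.15), Eln turned to 0.15 and 908 genes were higher, where 1541 had been; the cause was not tested. Scaled to all reads, Dcn (-0.33) and Eln (-0.37) became called, as a constant shift of -0.30 makes, with 5735 of all genes lower and 534 higher in place of 1559 and 1541. Centring on the median gene, no filter on low values and a base mean of at least 50 moved no call of a described gene, though Postn fell below that base mean. Among counts of single lists, 34 moved by over 1.5 times and 176 did not; without that GC and length trend, the genes of chondroitin and dermatan sulfate synthesis called lower went from 6 to 3 of 20. The TGF-beta targets called lower went from 8 of 12 to 5 of 11. Ctgf, called lower before, dropped out because no length was found under that older symbol. For the matricellular list that check is void, since a length was found by deposited symbol for 12 of its 16 tested genes, under the 80% set as the minimum.

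No paired analysis was possible because the table holds no columns for single libraries; leaving out libraries and other tools were not run for the same reason. Depth limits Postn, with a base mean of 14.7.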
